A study of Mus musculus with 12 samples.

Results

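Microglia are the resident macrophages of the brain, and 37 genes that mark their identity or their activation were followed through the cerebellum of 12 mice. The genes were chosen by symbol, as known markers of homeostatic microglia, of Trem2 and complement signalling and of the disease-associated state. All 37 symbols matched a gene identifier, out of 55401 identifiers in the count tables. They fell into 6 roles. Homeostatic identity held 12 genes (Csf1r, Cx3cr1, P2ry12, P2ry13, Tmem119, Gpr34, Selplg, Siglech, Fcrls, Olfml3, Sall1 and Aif1), and leukocyte adhesion and surface held 5 (Itgam, Itgb2, Ptprc, Laptm5 and Ly86). Trem2, Tyrobp, Fcer1g and Fcgr3 made up the activating receptor group, C1qa, C1qb, C1qc, C3 and C4b the complement group, and Cd68, Ctss, Mertk and Axl the phagocytosis and lysosome group. Apoe, Lpl, Cst7, Clec7a, Spp1, Itgax and Cd74 stood for disease-associated activation.

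The mice model spinocerebellar ataxia type 1, a disease of expanded CAG repeats in the Atxn1 gene. Het DMSO mice (4) were heterozygous for the Atxn1 154Q/2Q knock-in allele and were injected with the solvent dimethyl sulfoxide (DMSO). Het Hit 2 mice (4) carried the same allele and were injected with the compound Hit 2 at 25 mg/ml in DMSO. Wild-type mice injected with DMSO (4) formed the WT DMSO group. Every group thus received DMSO, below 4 ml/kg by the intraperitoneal route, in 2 courses of 5 daily injections set 2 days apart. Treatment began at 18 weeks of age, and the cerebella were collected at 20 weeks, after perfusion with saline. The knock-in allele sits in the mouse Atxn1 gene itself, so it is not limited to microglia. The libraries were made from the RNA of whole tissue, 1 library per mouse, and are named here by the animal number.

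Microglia depend on the receptor Csf1r for survival and keep contact with neurons through the receptor Cx3cr1 and the purinergic receptor P2ry12. The receptor Trem2 signals through the adaptor Tyrobp, and in mouse models of neurodegeneration this pathway is known to drive a state with higher Apoe, Lpl, Cst7, Clec7a, Spp1 and Itgax and lower homeostatic genes. The 3 C1q chains form the first component of the classical complement pathway, which tags synapses and debris for uptake, and C4 and C3 act downstream of it. Microglia of the cerebellum are known to be sparse compared with those of the forebrain.

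Reads assigned to genes ranged from 15855751 to 45265719 per library. Library 411 (Het DMSO) stood apart in its cell type markers. The median of 12 granule cell markers lay 5.04 log2 units below the WT DMSO median in 411, and 0.60 below it in library 410 (Het Hit 2), the next lowest. Library 409 (Het DMSO) stood apart in its read composition, with 0.0795% mitochondrial reads against 1.85% to 2.81% in the other 11 libraries. Results are therefore given with and without library 411, and the values of 409 and 410 stand beside the results they touch. The sex transcripts of 2 WT DMSO libraries differed from those of the other 10 libraries, so sex varied within the WT DMSO group only.

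Promoter sequences are printed for 4 genes on which the later comparisons turn, from the RefSeq promoter table of build GRCm38.p6, which is not the build named in the submitters' processing notes. The table held 27 of the 37 genes. It lacked C1qa, Tyrobp, C4b, Selplg, Csf1r, Itgb2, Cd74, Gpr34, Lpl and Tmem119. Each sequence covers the 250 bases before the transcription start, 5′ to 3′ on the strand of the gene. Capitals mark the motif GAGGAA, the core of the site bound by PU.1 (the lineage factor of macrophages, encoded by Spi1), or its reverse complement TTCCTC. C1qb and C1qc are neighbours on chromosome 4 and had among the smallest p-values of the knock-in comparison, as did Trem2. P2ry12 is shown because it went the opposite way to them in library 409. The windows are chr4:136886201-136886450 on the minus strand for C1qb, chr4:136892915-136893164 on the minus strand for C1qc, chr17:48346151-48346400 on the plus strand for Trem2 and chr3:59262986-59263235 on the minus strand for P2ry12.
C1qb: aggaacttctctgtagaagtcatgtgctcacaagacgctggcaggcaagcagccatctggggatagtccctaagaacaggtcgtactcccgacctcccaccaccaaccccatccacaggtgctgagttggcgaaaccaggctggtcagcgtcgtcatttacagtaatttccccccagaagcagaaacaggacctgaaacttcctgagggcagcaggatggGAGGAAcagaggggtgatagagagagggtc
C1qc: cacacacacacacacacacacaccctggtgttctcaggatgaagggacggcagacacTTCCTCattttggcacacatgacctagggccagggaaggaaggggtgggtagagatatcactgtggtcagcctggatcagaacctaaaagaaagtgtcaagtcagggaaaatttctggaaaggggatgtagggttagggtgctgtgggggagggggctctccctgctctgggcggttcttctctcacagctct
Trem2: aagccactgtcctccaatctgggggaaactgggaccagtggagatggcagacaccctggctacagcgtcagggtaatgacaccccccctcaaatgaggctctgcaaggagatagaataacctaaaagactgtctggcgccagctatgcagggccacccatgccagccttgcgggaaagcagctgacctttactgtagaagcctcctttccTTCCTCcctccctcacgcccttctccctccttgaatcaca
P2ry12: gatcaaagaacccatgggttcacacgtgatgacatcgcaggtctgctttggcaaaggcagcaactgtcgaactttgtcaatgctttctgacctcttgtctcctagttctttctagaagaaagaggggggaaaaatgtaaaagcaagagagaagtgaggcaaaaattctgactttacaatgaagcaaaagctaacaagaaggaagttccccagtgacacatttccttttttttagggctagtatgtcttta
The windows of C1qb, C1qc and Trem2 each held 1 match, and that of P2ry12 held 0. Of the 27 genes in the table, 16 (59.3%) had the motif on either strand of a window, against 6986 of all 27025 genes (25.9%). Axl, Apoe, Ctss, Laptm5, Ptprc and Spp1 were among those with a match, and Cx3cr1, Sall1, Mertk and C3 among those without. GC content of the printed windows was 55.2% (C1qb), 54.0% (C1qc), 56.0% (Trem2) and 41.6% (P2ry12). A match is a string of letters and was not tested as a binding site.

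The microglia genes spanned a wide range of levels. Counts were scaled to a common library size (CPM), and a level per length is the CPM divided by the kilobases of annotated exon (RPKM), averaged over the 12 libraries. Apoe, a lipid carrier that astrocytes make in large amounts as well, stood first at 253 ± 25.9 RPKM (SD, n = 12). It was the only gene whose mean minus its SD lay above the mean plus SD of the next in order. Ctss (a lysosomal protease) at 10.1 ± 4.50, C1qb at 9.61 ± 3.03, Axl at 8.85 ± 1.65, Mertk at 8.02 ± 2.84 and C1qa at 7.98 ± 3.35 followed (SD, n = 12). From Ctss downwards, the range of mean ± SD of each gene overlapped that of the next in order. Csf1r reached 5.51 ± 1.94, Cx3cr1 2.35 ± 1.02, Tmem119 1.99 ± 0.955 and P2ry12 1.56 ± 0.931 (SD, n = 12). The integrin Itgam (0.143), the phosphatase Ptprc (0.114), also known as CD45, and the lipase Lpl (0.0798) closed the order of the 34 genes that passed the filter on low counts. Exon lengths came from an annotation that is not stated to be the authors' own, and a long annotated length, such as 18313 bases for Ptprc, lowers the level per length.

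**Figure D1:**
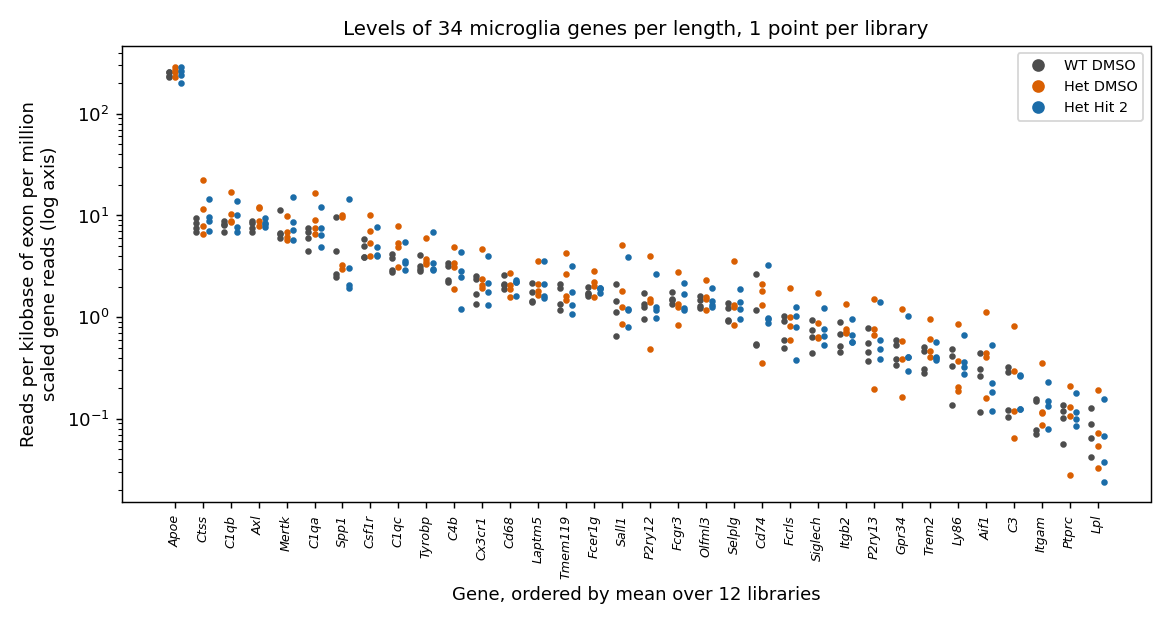
Level of each of 34 microglia genes in each library, as RPKM on a log axis, with 1 point per library coloured by group and genes ordered by their mean. Apoe (mean 253) stands far above the rest, and the 3 groups overlap for every gene.

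Cst7, Clec7a and Itgax, among the best-known markers of disease-associated microglia, did not pass the filter on low counts and were left out of the tests below. Without that filter all 37 genes were tested, and 0 passed in each of the 3 comparisons in edgeR. Cst7, which encodes the protease inhibitor cystatin F, had 3 reads over the 4 WT DMSO libraries, 4 over the Het DMSO libraries and 3 over the Het Hit 2 libraries. In 5 libraries Cst7 had 0 reads, and a count of 0 allows up to 3 reads, or 0.0690 to 0.187 CPM over the libraries of the series. Clec7a (the lectin Dectin-1) had 12, 13 and 22 reads in these groups, and Itgax (the integrin CD11c) had 16, 22 and 16. Clec7a ranged from 0 to 9 reads per library, with 9 in library 410 and 8 in library 422, and Itgax from 1 to 8. At this depth a difference between the groups could not be read for these genes.

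Markers of other immune cells were scarce. The 10 monocyte and neutrophil markers summed to 0.911 to 7.27 CPM, and the 12 lymphocyte markers to 0.891 to 2.03 CPM. Among the lymphocyte markers, Cd3d, Cd3g, Ms4a1, Nkg7 and Klrb1c had at most 3 reads in every library, as had the myeloid marker Plac8. Markers of border macrophages, the relatives of microglia in the meninges and around vessels, were present and summed to 19.8 to 37.4 CPM. Of these 10 markers, 7 passed the filter on low counts. Stab1 alone ranged from 12.7 to 28.1 CPM, and Mrc1 from 2.04 to 5.66 CPM. The 37 microglia genes summed to 694 to 816 CPM in WT DMSO, 710 to 1074 in Het DMSO and 619 to 934 in Het Hit 2, of which Apoe made up the larger share. Many of the genes are known outside microglia as well, such as Apoe, Mertk, C4b and Sall1 in astroglia, Axl in vessels and Spp1 and Lpl in neurons.

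The first comparison, Het DMSO against WT DMSO, asks what the knock-in allele changes. No microglia gene passed the threshold. In edgeR's quasi-likelihood test with adjustment over all genes, 0 of the 34 genes tested had an adjusted p under 0.05, and the smallest adjusted p was 0.616. The background was equally low, since 0.00516% of all 19378 genes passed. At an unadjusted p under 0.05 there were 2 microglia genes, Axl and C1qc, both higher in Het DMSO, against 7.11% of all genes. DESeq2 called 0 as well, with 2 at an unadjusted p under 0.05, and limma with library weights called 0, with 0. In 0 of 34 genes did the 4 Het DMSO libraries lie wholly above or below the 4 WT DMSO libraries, against 4.39% of all genes.

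Most fold changes lay on the same side of 0. The log2 fold change was above 0 in 32 of 34 genes, against 55.8% of all genes, and its median was 0.47, against 0.05 over all genes. Lower values were seen for Mertk (-0.08) and Cd68 (-0.06). In whole tissue, a different number of microglia and a different amount of an RNA per microglial cell cannot be told apart. The shift was smaller without library 411: 23 of 34 genes lay above 0, with a median of 0.12 (0.01 over all genes, of which 50.7% lay above 0). The count past the threshold stayed 0 of 34 without library 411, where 0.0456% of all genes passed, and 0 of 34 had an unadjusted p under 0.05, against 7.33% of all genes. The 12 oligodendrocyte markers lay on the same side, with 12 of 12 above 0 and a median of 0.49, and 7 of 12 with a median of 0.08 without library 411. Purkinje cell markers lay on the other side with and without that library, with 1 of 12 above 0 (median -0.75) and 0 of 12 (median -0.53), of which 2 and 5 of 12 had an unadjusted p under 0.05 in edgeR. The part of both lists in the microglia values was not tested.

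**Figure D2:**
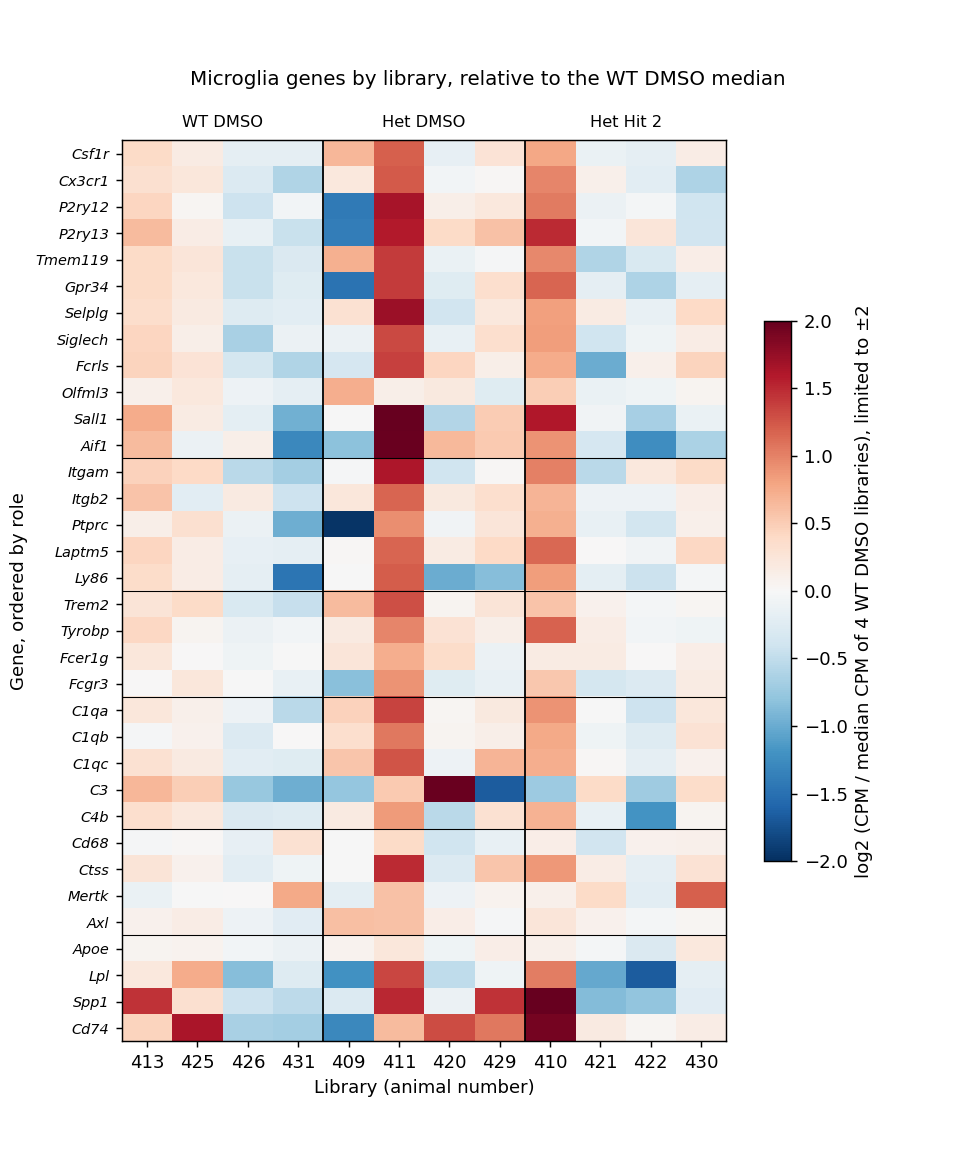
Heat map of 34 microglia genes (rows, ordered by role) in 12 libraries (columns, grouped as WT DMSO, Het DMSO and Het Hit 2). Colour gives the log2 ratio of CPM to the median of the 4 WT DMSO libraries, limited to ±2; the columns of libraries 411 and 410 are red in nearly every row, with 30 of 34 genes each above all WT DMSO libraries.

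Homeostatic identity genes all had a fold change above 0, with a median of 0.51 over the 12, and 8 of 12 and a median of 0.08 without library 411. Values per library are given below in the order 413, 425, 426 and 431 for WT DMSO, then 409, 411, 420 and 429 for Het DMSO. Csf1r, the receptor for the survival factors Csf1 and Il34, stood at 33.7, 28.9, 22.8 and 22.8 CPM in WT DMSO and at 40.9, 58.9, 23.0 and 31.3 CPM in Het DMSO. Of the Het DMSO libraries, 411 and 409 lay above all 4 WT DMSO libraries, and the groups overlapped. Its log2 fold change was 0.51 (standard error 0.29, adjusted p 0.616 in edgeR), 0.26 without library 411 and 0.00039 without 409 and 411.

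Cx3cr1, the receptor for neuronal fractalkine, was at 11.4, 10.6, 7.56 and 5.998 CPM in WT DMSO and at 10.6, 21.3, 8.71 and 9.26 CPM in Het DMSO. Of these, only library 411 exceeded the WT DMSO range. This came to 0.48 on the log2 scale (standard error 0.38, adjusted p 0.643 in edgeR, exact two-sided permutation p 0.343) and became 0.12 without library 411. Tmem119, a surface protein used to tell microglia from other macrophages, was at 4.89, 4.43, 2.75 and 3.09 CPM in WT DMSO and at 6.16, 9.94, 3.42 and 3.71 CPM in Het DMSO. Here both 409 and 411 lay above the WT DMSO libraries, while 420 and 429 lay inside their range. The log2 fold change of Tmem119 was 0.62 (standard error 0.41, adjusted p 0.623 in edgeR, exact permutation p 0.286), 0.26 without library 411 and -0.10 without 409 and 411.

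The purinergic receptor P2ry12 behaved otherwise in library 409. It stood at 4.42, 3.39, 2.46 and 3.18 CPM in WT DMSO and at 1.23, 10.2, 3.55 and 3.80 CPM in Het DMSO, so this group held both the lowest and the highest of the 12 libraries. P2ry13, its neighbour in function, and Gpr34, a lysophospholipid receptor, showed the same arrangement, with 0.493 and 0.345 CPM in library 409 and 3.84 and 2.52 CPM in library 411. The log2 fold change of P2ry12 was 0.48 with all libraries and -0.24 without 411. Sall1, a transcription factor that maintains microglial identity, ranged from 3.45 to 11.2 CPM in WT DMSO and from 4.48 to 26.8 CPM in Het DMSO. Its log2 fold change of 0.76 became -0.0016 without library 411, which at 26.8 CPM was 3.82 times the WT DMSO mean. Aif1 (Iba1, the usual stain for microglia) had the largest fold change of the 34 genes at 0.88 on the log2 scale (standard error 0.61, adjusted p 0.630 in edgeR), from only 4 to 34 reads per library, and 0.21 without library 411. Selplg, Siglech and Fcrls gave 0.64, 0.48 and 0.52, and 0.06, 0.07 and 0.09 without library 411. Olfml3, a secreted glycoprotein, was highest in library 409 at 14.1 CPM, and its fold change was 0.23 with all libraries, 0.29 without library 411 and -0.038 without 409 and 411.

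Leukocyte adhesion and surface genes had a median of 0.43 over 5 genes, all above 0, and of -0.09 with 2 of 5 above 0 without library 411. Itgam and Itgb2, the chains of complement receptor 3, reached 1.77 and 4.14 CPM in library 411, while the other 3 Het DMSO libraries lay at 0.436 to 0.584 and 2.12 to 2.34 CPM. In WT DMSO the ranges were 0.358 to 0.785 and 1.39 to 2.75 CPM. Reads of Itgam are uncertain in part, because 3450 of its 5024 exonic bases overlap the exons of another gene on the same strand. Ptprc ranged from 0.517 (409) to 3.84 CPM (411) within Het DMSO and from 1.03 to 2.52 CPM in WT DMSO. Laptm5, a lysosomal membrane protein, and Ly86, a partner of a Toll-like receptor homologue, had log2 fold changes of 0.43 and 0.25, and of 0.13 and -0.36 without library 411.

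Trem2 and its signalling partners had a median of 0.32 over 4 genes, all above 0, and of 0.14 with 3 of 4 above 0 without library 411. Trem2 stood at 2.28, 2.50, 1.54 and 1.39 CPM in WT DMSO and at 2.98, 4.69, 1.99 and 2.29 CPM in Het DMSO. Libraries 411 and 409 exceeded all WT DMSO libraries, and 420 and 429 did not. Between the groups the log2 difference was 0.63 (standard error 0.31, unadjusted p 0.0663, adjusted p 0.616 in edgeR, exact permutation p 0.143), from 31 to 121 reads per library, and became 0.35 without library 411 and 0.14 without 409 and 411. Tyrobp, the adaptor through which Trem2 signals, had 2.32, 4.04, 2.49 and 2.21 CPM in Het DMSO against 1.88 to 2.71 CPM in WT DMSO. The Fc receptor subunits Fcer1g and Fcgr3 gave log2 fold changes of 0.29 and 0.02, and of 0.16 and -0.40 without library 411. For Fcgr3 2 of the 4 Het DMSO libraries lay below all WT DMSO libraries and 1 above.

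Complement genes had the highest median of the 6 roles, both with and without library 411. Their median was 0.58, with 5 of 5 above 0, and 0.31, again with 5 of 5 above 0, without library 411. C1qa stood at 7.92, 7.23, 6.28 and 4.66 CPM in WT DMSO and at 9.29, 17.3, 6.91 and 7.76 CPM in Het DMSO. C1qb stood at 8.85, 9.49, 7.43 and 9.04 CPM in WT DMSO and at 11.2, 18.7, 9.33 and 9.68 CPM in Het DMSO. C1qc stood at 7.99, 7.30, 5.57 and 5.42 CPM in WT DMSO and at 9.43, 15.3, 5.97 and 10.3 CPM in Het DMSO. For C1qb and C1qc 3 of the 4 Het DMSO libraries lay above all WT DMSO libraries, the exception being 420, and for C1qa 2 did. The log2 fold change of C1qc was 0.64 (standard error 0.29, unadjusted p 0.0448, adjusted p 0.616 in edgeR, exact permutation p 0.114). C1qa gave 0.66 (standard error 0.34, adjusted p 0.616 in edgeR, exact permutation p 0.143) and C1qb 0.49 (standard error 0.26, adjusted p 0.616 in edgeR, exact permutation p 0.0571). Without library 411 the 3 chains gave 0.31 (C1qa), 0.23 (C1qb) and 0.40 (C1qc), with adjusted p from 0.632 to 0.687 in edgeR. Without libraries 409 and 411 they gave 0.16, 0.12 and 0.30.

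The downstream components varied more between mice than between groups. C3, which all complement pathways cleave, stood at 1.68, 1.48, 0.628 and 0.537 CPM in WT DMSO and at 0.616, 1.51, 4.17 and 0.334 CPM in Het DMSO. Library 420 was highest and 429 lowest of the 12, at 8 to 67 reads per library over the series. C4b ranged from 12.7 to 19.6 CPM in WT DMSO and from 10.7 to 28.0 CPM in Het DMSO. It has a near-identical copy, C4a, so that reads shared by both copies may be missing from either count.

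Phagocytosis and lysosome genes had a median of 0.15, with 2 of 4 above 0, and of -0.03, again with 2 of 4 above 0, without library 411. Axl, a receptor tyrosine kinase that binds phosphatidylserine on dying cells through a bridging ligand, had the smallest p of the 34 genes. It stood at 42.9, 44.5, 37.5 and 34.5 CPM in WT DMSO and at 61.2, 60.1, 43.9 and 39.5 CPM in Het DMSO. Libraries 409 and 411 lay above all WT DMSO libraries, and the other 2 inside their range. Axl thus differed by 0.36 on the log2 scale (standard error 0.16, unadjusted p 0.0388, adjusted p 0.616 in edgeR, exact permutation p 0.143), and 0.30 (standard error 0.16, adjusted p 0.620 in edgeR) without library 411. It was 0.055 without libraries 409 and 411, and 0.066 in limma with library weights. Mertk, a kinase of the same family, had its highest WT DMSO value in library 431 (48.6 CPM) and ranged from 25.1 to 43.2 CPM in Het DMSO. Ctss was at 30.5 CPM in library 411 and at 8.96 to 15.9 CPM in the other 3 Het DMSO libraries, against 9.34 to 12.9 CPM in WT DMSO. Cd68, the lysosomal marker of phagocytes, ranged from 1.99 to 3.43 CPM in Het DMSO and from 2.35 to 3.27 CPM in WT DMSO.

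Genes of the disease-associated state had a median of 0.13 over the 4 tested, all above 0, and of 0.11 with 3 of 4 above 0 without library 411. Apoe stood at 551, 558, 508 and 488 CPM in WT DMSO and at 557, 622, 497 and 582 CPM in Het DMSO. The ranges overlapped, with 2 of 4 Het DMSO libraries above all WT DMSO libraries. Its log2 fold change was 0.10 (standard error 0.14, adjusted p 0.767 in edgeR, exact permutation p 0.257), and 0.07 without library 411. Spp1 (osteopontin) ranged from 4.07 to 16.0 CPM in WT DMSO and from 4.85 to 16.6 CPM in Het DMSO, with 413, 411 and 429 high. Some of its exonic bases (309) overlap another gene on the same strand, which had at most a few reads. Cd74, the chaperone of class II antigen presentation, ranged from 0.895 to 4.48 CPM in WT DMSO and from 0.591 to 3.55 CPM in Het DMSO. Lpl gave a log2 fold change of 0.09 with and -0.63 without library 411.

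**Figure D3:**
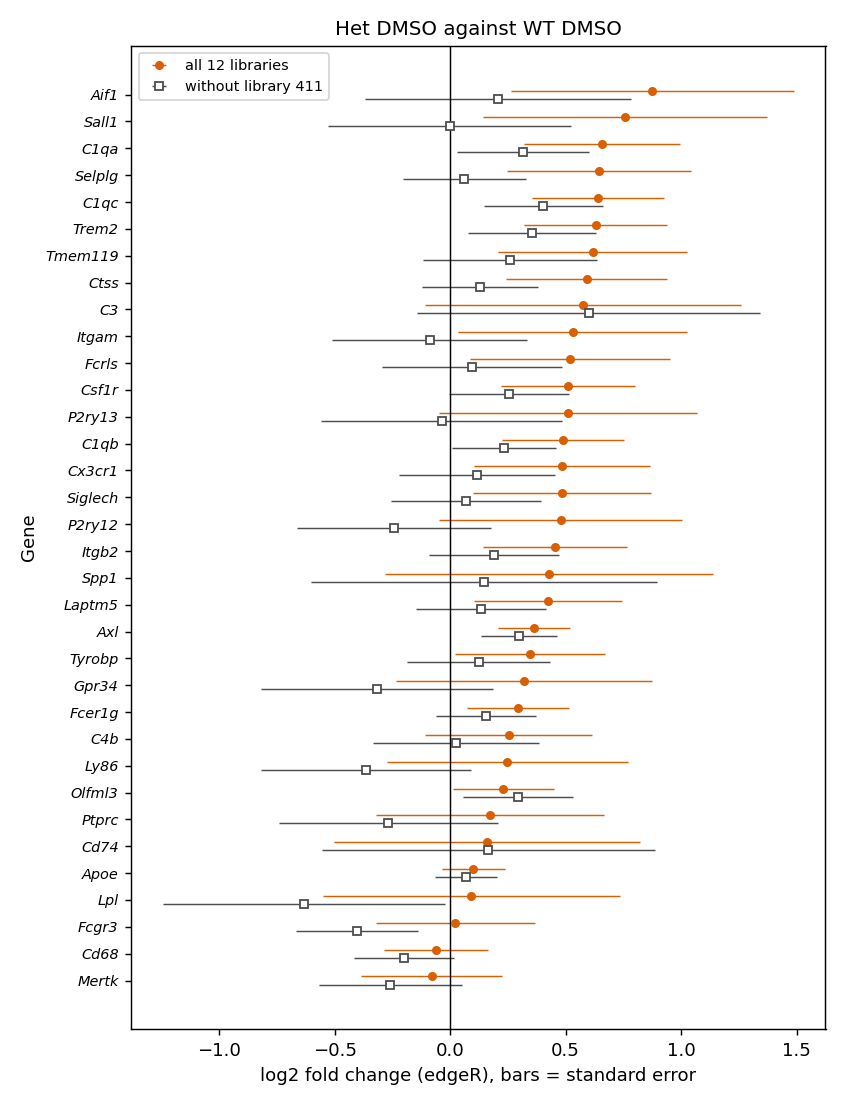
Fold change on the log2 scale between Het DMSO and WT DMSO for 34 microglia genes (rows), with all 12 libraries (filled circles) and without library 411 (open squares); bars are standard errors. The median moves from 0.47 to 0.12, and the complement genes C1qa, C1qb and C1qc stay above 0 in both.

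Library 411 was the highest of the 12 libraries in 27 of 34 microglia genes, and library 410 of the Het Hit 2 group was second in 23 of these. Over all genes, 411 was highest in 27.5%. Both libraries lay above all 4 WT DMSO libraries in 30 of 34 microglia genes, against 41.1% (411) and 35.02% (410) of all genes. The counterpart was 9 of 34 in library 409, against 39.03% of all genes. It was 3 in 420 (21.8% of all genes), 4 in 429 (21.3%), 6 in 430 (25.8%), 0 in 421 (20.2%) and 0 in 422 (23.3%), so that in these 6 libraries the microglia genes lay above all WT DMSO libraries in a smaller share than all genes did. The exceptions to 411 were Olfml3 and Axl, highest in 409, C3 in 420, Mertk in 430, and Tyrobp, Spp1 and Cd74 in 410. Per library, the median over the 34 genes of the log2 difference from the WT DMSO median was 1.22 in 411 and 0.81 in 410, and between -0.23 and 0.36 in the other 10.

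Markers of some other cell types also lay far from WT DMSO in these 2 libraries. The median of 12 oligodendrocyte markers lay 1.57 above the WT DMSO median in 411 and 1.39 above it in 410, followed by 0.65 in 429 and 0.62 in 413. Summed, these 12 markers came to 1848 to 3543 CPM in WT DMSO, 1362 to 6802 in Het DMSO and 1381 to 5707 in Het Hit 2. Purkinje cell markers lay below the WT DMSO range of -0.04 to 0.02 in all 8 knock-in libraries, with medians of -2.32 in 411, -1.15 in 410 and -0.77 to -0.22 in the other 6. Their sum ranged from 7413 to 7758 CPM in WT DMSO, 945 to 6519 in Het DMSO and 3487 to 6560 in Het Hit 2. Granule cell markers summed to 6408 to 7399 CPM in WT DMSO, 226 to 9842 in Het DMSO and 4382 to 7406 in Het Hit 2. Astrocyte and Bergmann glia markers lay at -0.24 in 411 and -0.12 in 410, below the WT DMSO range of -0.08 to 0.10. The lowest median was -0.38 in 409. Single markers of this list diverged in 411. Gdf10 stood there at 1.62 CPM against 103 to 176 CPM in WT DMSO, and Slc1a3 at 179 against 709 to 841 CPM. Fabp7, at 7.42 CPM in 411, lay above its WT DMSO range of 3.35 to 6.42 CPM. The part of these markers in the microglia values was not tested. Border macrophage markers had a median of 0.07 in 411 and 0.50 in 410, and choroid plexus markers ranged from -2.49 (422) to 3.02 (429). Endothelium and pericyte markers were highest in 410 (0.31) and 411 (0.29). Red blood cell markers were highest in 410 (3.14) and lay at -0.66 in 411. The part of these lists was not tested either.

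**Figure D4:**
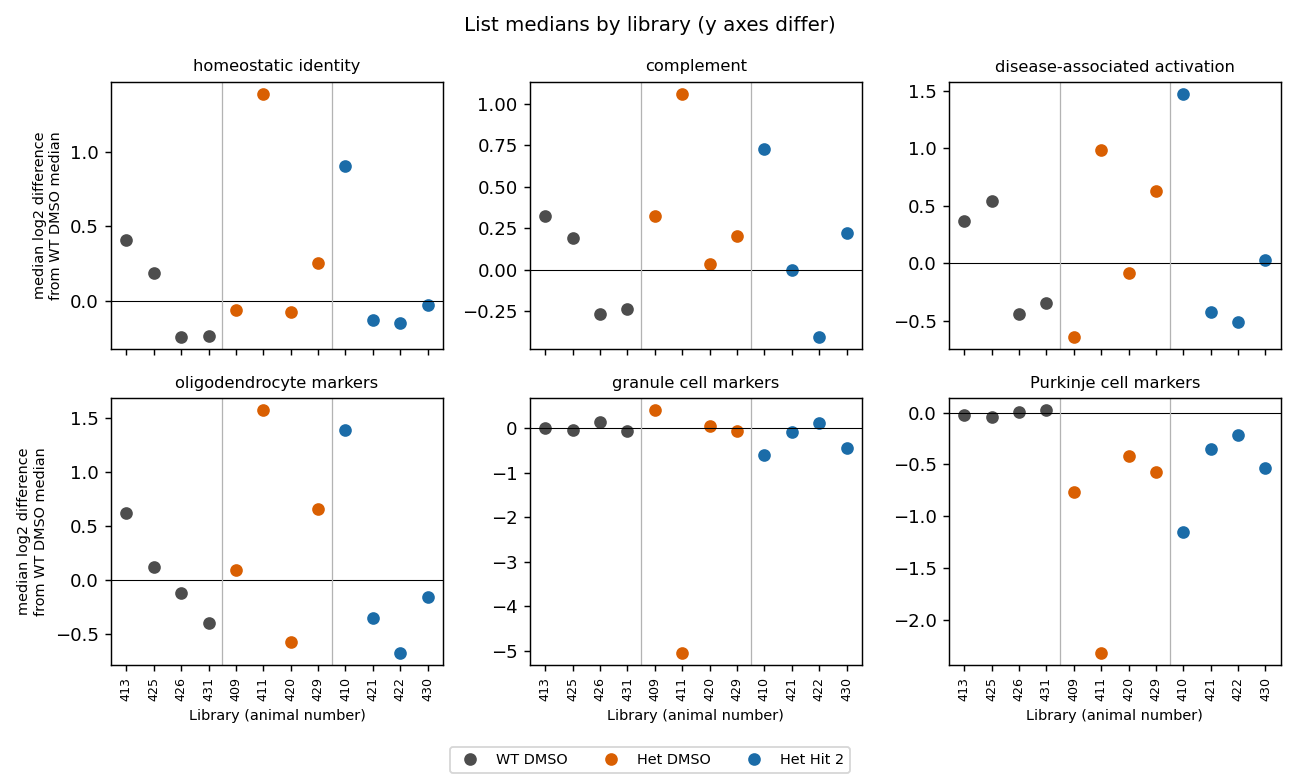
Median log2 difference from the WT DMSO median in each library for 3 microglia roles (homeostatic identity, complement, disease-associated activation) and for oligodendrocyte, granule cell and Purkinje cell markers; each point is 1 library, coloured by group, and the y axes differ. Libraries 411 and 410 are highest for homeostatic identity (1.38 and 0.90), complement (1.06 and 0.73) and oligodendrocyte markers (1.57 and 1.39) and lowest for Purkinje cell markers (-2.32 and -1.15).

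The groups overlapped in the differences between role medians. The disease-associated median rests on the 4 tested genes of 7 (Apoe, Lpl, Spp1 and Cd74), of which Apoe, Lpl and Spp1 are also known outside microglia. Within a library, the median of the disease-associated genes minus that of the homeostatic genes was between -0.20 and 0.35 log2 units in WT DMSO. It was -0.58 (409), -0.40 (411), 0.00 (420) and 0.37 (429) in Het DMSO, and 0.56 (410), -0.29 (421), -0.36 (422) and 0.06 (430) in Het Hit 2. The same difference for complement minus homeostatic genes was -0.09 to 0.01 in WT DMSO, and it was 0.39 (409), -0.33 (411), 0.11 (420) and -0.05 (429) in Het DMSO, and -0.18 (410), 0.13 (421), -0.25 (422) and 0.25 (430) in Het Hit 2.

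Library 409 was the lowest of the 12 libraries for P2ry12, P2ry13, Gpr34, Ptprc, Fcgr3 and Cd74, and it lay above all 4 WT DMSO libraries for Csf1r, Tmem119, Olfml3, Trem2, Fcer1g, C1qa, C1qb, C1qc and Axl. These 6 and 9 of 34 genes are smaller shares than over all genes, of which 31.97% were lowest in 409 and 39.03% lay above all WT DMSO libraries there. Median GC content of the longest annotated transcript was 42.0% for the 6 low genes and 54.5% for the 9 high ones, against 51.5% for the 34 genes and 48.8% for all genes. Cd74, at 56.6%, was the exception among the low genes. Across the 34 genes, which share this library and are not independent replicates, the deviation of 409 from the median of the other libraries had a Spearman correlation of 0.58 (Pearson 0.61) with transcript GC. Over 19346 genes the Spearman value in 409 was 0.69, and in the other libraries it lay between -0.29 and 0.14. In library 411 it was -0.51 over the 34 genes and 0.05 over all genes. In 409, GC-rich transcripts were thus higher over all genes as well as among the microglia genes. The part of base composition in these fold changes was not tested. The median fold change was 0.55 without 409, 0.12 without 411, and 0.09 without both, with 24 of 34 genes above 0 in the last.

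**Figure D5:**
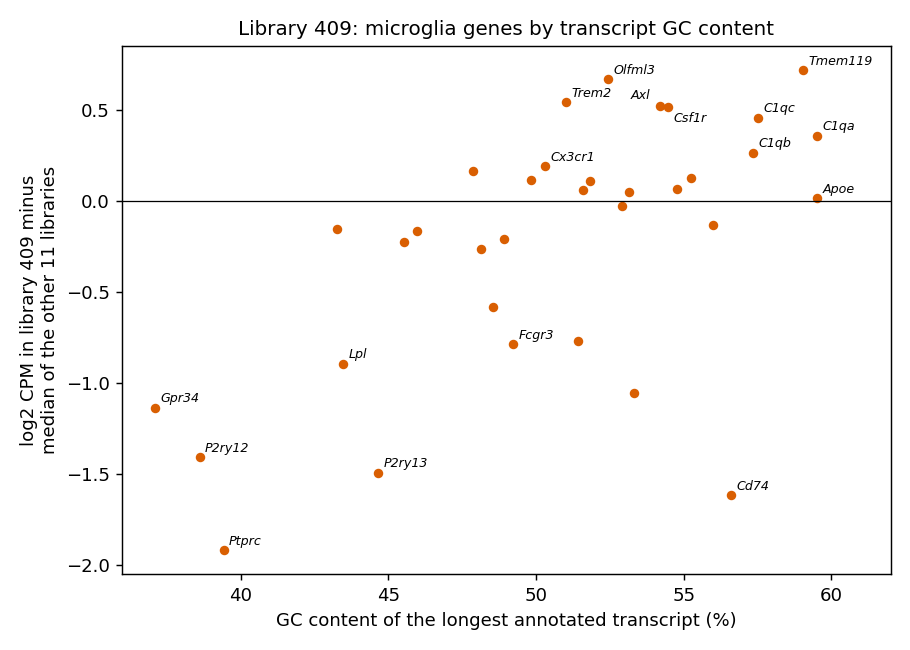
Deviation of library 409 from the median of the other 11 libraries (log2 CPM) against the GC content of the longest annotated transcript (%), 1 point per microglia gene (34 genes). Ptprc, P2ry12, P2ry13 and Gpr34 lie at the lower left, and Tmem119, Olfml3, Trem2, Axl, Csf1r and the C1q chains at the upper right, with a Spearman correlation of 0.58.

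The second comparison, Het Hit 2 against Het DMSO, asks what the compound changes in knock-in mice. In edgeR's quasi-likelihood test 0 of 34 microglia genes passed an adjusted p of 0.05, against 0% of all genes, and the smallest adjusted p was 0.898. At an unadjusted p under 0.05 there were 0 microglia genes, against 1.55% of all genes. DESeq2 called 0, with 0 at an unadjusted p under 0.05, and limma with library weights called 0, with 2. In 0 of 34 genes did the groups fail to overlap, against 1.03% of all genes. The fold change was below 0 in 29 of 34 genes, with a median of -0.27 (-0.04 over all genes, of which 44.3% lay above 0). This comparison shares the Het DMSO libraries with the first, so the 2 sets of signs are not independent. Without library 411 the fold change was above 0 in 20 of 34 genes, with a median of 0.08, and 0 genes passed, against 0% of all genes, with 0 of 34 at an unadjusted p under 0.05, against 5.96%. Of the oligodendrocyte markers 0 of 12 lay above 0 with a median of -0.38, and 9 of 12 with a median of 0.05 without library 411. Purkinje cell markers lay above 0 in 11 of 12 (median 0.27), and in 7 of 12 (0.01) without 411, and choroid plexus markers in 0 of 12 (-0.98), and again in 0 of 12 (-1.16) without it. Granule cell markers lay above 0 in 7 of 12 (0.08), and in 0 of 12 (-0.36) without 411. Red blood cell markers lay above 0 in 5 of 5 (0.89, and 0.55 without 411). Of the monocyte and neutrophil markers, 4 of 4 tested lay above 0 (0.83, and 0.82 without 411). The part of these markers in the microglia values was not tested.

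Values of Het Hit 2 are given in the library order 410, 421, 422 and 430. Axl stood at 47.5, 42.7, 38.9 and 41.3 CPM, inside the Het DMSO range except for 422, and its log2 fold change was -0.27 (standard error 0.16, adjusted p 0.898 in edgeR, exact permutation p 0.257). C1qc stood at 10.6, 6.57, 5.66 and 6.85 CPM, with library 410 above all Het DMSO libraries other than 411, and gave -0.47 (standard error 0.29, adjusted p 0.898 in edgeR, exact permutation p 0.314). Aif1 stood at 0.811, 0.346, 0.184 and 0.281 CPM against 0.246 to 1.72 CPM in Het DMSO, and gave -1.04 (standard error 0.63, adjusted p 0.898 in edgeR, exact permutation p 0.314). These 3 genes had the smallest p-values, and in each the Het Hit 2 libraries overlapped those of Het DMSO. Without library 411 their fold changes were -0.22 (Axl), -0.25 (C1qc) and -0.40 (Aif1).

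Cx3cr1 stood at 18.0, 9.79, 7.89 and 5.96 CPM under Hit 2 and gave -0.26 on the log2 scale (standard error 0.38, adjusted p 0.898 in edgeR), and 0.09 without library 411. Tmem119 stood at 7.35, 2.47, 3.04 and 4.13 CPM, with -0.46 (standard error 0.41, adjusted p 0.898 in edgeR), and -0.12 without library 411. For both genes library 410 lay above the other 3 Het Hit 2 libraries. Trem2 stood at 2.84, 2.03, 1.86 and 1.97 CPM, with -0.46 (standard error 0.31, adjusted p 0.898 in edgeR, exact permutation p 0.200), and -0.21 without library 411. C1qa stood at 12.6, 6.72, 5.08 and 7.88 CPM, with -0.36 (standard error 0.34, adjusted p 0.898 in edgeR), and -0.03 without library 411. Apoe stood at 571, 516, 433 and 617 CPM, with -0.08 (standard error 0.14, adjusted p 0.903 in edgeR), and -0.06 without library 411.

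By role, the homeostatic genes had a median of -0.31 with 0 of 12 above 0, and of 0.10 with 8 of 12 above 0 without library 411. Complement genes gave -0.36 with 0 of 5 above 0, and -0.08 with 1 of 5 above 0 without it. The Trem2 group gave -0.13 and 0.04, the adhesion group -0.05 and 0.43, the phagocytosis group -0.12 and 0.15 and the disease-associated group -0.18 and 0.03, each with and without library 411 in that order. Library 410 pulled the other way. Without it the median over the 34 genes was -0.57, with 1 gene above 0, and 5 of 34 genes (Csf1r, Tmem119, C1qc, Aif1 and Spp1, each with a fold change below 0) had an unadjusted p under 0.05, against 3.76% of all genes in that fit, and 0 passed after adjustment. With 410 and 411 both left out, which was chosen after the data were examined, the median was -0.21 and 8 of 34 genes lay above 0. Mertk was the largest exception in sign at 0.35 on the log2 scale (standard error 0.31, adjusted p 0.898 in edgeR), with 65.9 CPM in library 430 and 24.8 to 37.8 CPM in the other 3.

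The third comparison, Het Hit 2 against WT DMSO, asks how far the treated knock-in mice stood from wild type. In edgeR's quasi-likelihood test 0 of 34 microglia genes passed, against 0.00516% of all genes, with a smallest unadjusted p of 0.266. At an unadjusted p under 0.05 there were 0 microglia genes, against 1.71% of all genes. DESeq2 and limma with library weights called 0 as well, each with 0 at an unadjusted p under 0.05. In 0 of 34 genes did the groups lie apart, against 6.32% of all genes. The fold change was above 0 in 29 of 34 genes with a median of 0.18 (0.02 over all genes), against 55.7% of all genes. Leaving out library 411, which is in neither group, gave 0.16 and 0 of 34 genes passing, against 0.0709% of all genes, with 0 of 34 at an unadjusted p under 0.05, against 3.81%. Oligodendrocyte markers lay above 0 in 10 of 12 (median 0.13), Purkinje cell markers in 1 of 12 (-0.52) and choroid plexus markers in 0 of 12 (-0.85). Without library 411 these medians were 0.11, -0.53 and -0.88, and 7 of 12 Purkinje cell markers were lower at an unadjusted p under 0.05 in edgeR. Red blood cell markers lay above 0 in 5 of 5 (0.93, and 0.92 without 411), and granule cell markers in 2 of 12 (-0.24, and -0.25 without 411). The part of these lists in the microglia values was not tested. Without library 410 the median was -0.09, with 10 of 34 genes above 0.

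Laptm5 (13.5, 6.08, 5.79 and 8.07 CPM in Het Hit 2, 5.37 to 8.21 CPM in WT DMSO) had the smallest p of this comparison and gave 0.37 on the log2 scale (standard error 0.32, unadjusted p 0.266 in edgeR, exact permutation p 0.429), and 0.038 without library 410. C1qb (15.1, 8.40, 7.45 and 10.9 CPM) gave 0.26 (standard error 0.26, exact permutation p 0.457), and 0.024 without library 410, and libraries 410 and 430 lay above all WT DMSO libraries. Tyrobp (4.63, 2.27, 1.98 and 1.92 CPM) gave 0.31 (standard error 0.32, exact permutation p 0.600), and -0.08 without library 410. In Laptm5 and Tyrobp, 410 was the only Het Hit 2 library above the WT DMSO range. Cx3cr1, Tmem119, C1qa, Trem2 and Apoe gave 0.22, 0.16, 0.30, 0.17 and 0.02, and without library 410 they gave -0.18, -0.25, -0.0029, 0.0065 and -0.02.

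The other genes of the microglial pathways gave no call either. A further 6 lists (91 genes, 72 tested) held lineage factors and receptors, other disease-associated genes, other complement genes, antigen presentation, inflammatory signalling and other Fc receptors. In the edgeR test 0 of 72 genes passed in any of the 3 comparisons. At an unadjusted p under 0.05, 6 were higher and 0 lower in Het DMSO against WT DMSO, 1 higher and 1 lower in Het Hit 2 against Het DMSO, and 1 higher and 1 lower in Het Hit 2 against WT DMSO. These counts stand beside 7.11%, 1.55% and 1.71% of all genes at that threshold, in the same order, and are near them. Log2 fold changes above 0 numbered 53, 18 and 51 of 72 in these comparisons, against 55.8%, 44.3% and 55.7% of all genes. Without library 411 they numbered 48, 32 and 51 of 73, against 50.7%, 49.9% and 52.3% of all genes. In that setting 0 of 73 passed, and at an unadjusted p under 0.05 there were 4 higher and 0 lower, 4 higher and 2 lower, and 1 higher and 1 lower, against 7.33%, 5.96% and 3.81% of all genes.

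Csf1, a ligand of Csf1r, stood at 42.3, 35.4, 26.9 and 31.7 CPM in Het DMSO (library order as before) against 21.98 to 29.2 CPM in WT DMSO. Its log2 fold change was 0.44 (standard error 0.18, unadjusted p 0.0290, adjusted p 0.616 in edgeR), and 0.45 without library 411. Csf1 was highest in library 409 (42.3 CPM), while library 420 (26.9 CPM) lay inside the WT DMSO range. How far the fold change of Csf1 rests on library 409 was not tested. Cd63, a tetraspanin of late endosomes found in the disease-associated set, stood at 46.1, 43.3, 34.8 and 37.6 CPM in Het DMSO, 26.1 to 34.9 CPM in WT DMSO and 35.7, 26.4, 27.5 and 24.5 CPM in Het Hit 2. It gave 0.40 (standard error 0.15, unadjusted p 0.0249, adjusted p 0.616 in edgeR) in the first comparison and -0.50 (standard error 0.16, unadjusted p 0.00699, adjusted p 0.898 in edgeR) in the second, with the Het DMSO libraries shared by both. Without library 411 the values of Cd63 were 0.38 and -0.51. Cd63 too was highest in library 409 (46.1 CPM), and library 420 (34.8 CPM) lay inside the WT DMSO range. The part of library 409 in the Cd63 values was not tested either. Csf1 and Cd63 are also made by other cells of the cerebellum.

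Tap1, a peptide transporter of class I antigen presentation, gave 0.72 (standard error 0.28, unadjusted p 0.0240, adjusted p 0.616 in edgeR) in Het DMSO against WT DMSO, and 0.48 without library 411. Antigen presentation genes as a list had a median of 0.50 with 10 of 11 above 0, and 0.36 with 11 of 11 above 0 without library 411. The lineage factors and receptors had a median of 0.40 with 18 of 22 above 0, and -0.0053 with 11 of 22 without it. Other complement genes had a median of -0.03 with 4 of 10 above 0, and 0.0030 with 6 of 11 without it. With and without 411, the medians were 0.23 and 0.13 for inflammatory signalling and 0.20 and 0.11 for other disease-associated genes. For other Fc receptors they were 0.04 and 0.08. Mef2c, a transcription factor of microglia and of neurons, was the gene of these lists with the smallest p in the second comparison. It stood at 16.9, 17.7, 31.1 and 28.5 CPM in Het DMSO and at 35.1, 37.1, 43.1 and 37.02 CPM in Het Hit 2, with the lowest values in libraries 409 and 411. The groups did not overlap, as in 1.03% of all genes, and Mef2c gave 0.70 (standard error 0.20, unadjusted p 0.00505, adjusted p 0.898 in edgeR), and 0.56 without library 411. Inflammatory cytokines were near the limit of detection, as Tnf, Il6, Ccl2, Ccl4, Ccl12 and Il10 had at most 3 reads in every library.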

How the data were processed

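Cerebellar RNA of 12 mice was read from directional, rRNA-depleted libraries, per the labels' protocols. The deposited values are raw read counts, in STAR gene tables (1 for each mouse), and the submitters' processing notes name STAR 2.7.10a, FastQC 0.11.9 and GRCm39. The annotation release is not given in the sources used here. Counts on the strand opposite the first read were used, since 5.21% to 6.47% of gene reads lay on the other strand. Reads unassigned to a gene (44.7% to 54.6%) stayed out of library sizes and tests. Symbols, exon lengths and transcript GC came from GENCODE M21 (GRCm38), which matched 55141 of 55401 identifiers.

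Genes were kept by filterByExpr (19378) and fitted in edgeR 4.0.16 (R 4.3.3) with TMM factors, 1 coefficient per group and all 12 libraries, by the two-sided quasi-likelihood test with Benjamini-Hochberg adjustment over all genes (threshold 0.05). Standard errors came from the F statistic. CPM used TMM-scaled sizes, and log2 CPM a prior count of 2. Exact permutation tests were two-sided, used 70 assignments and cannot give a p below 0.0286. The fit was tested on simulated data for Het DMSO against WT DMSO (19098 genes), where 36.7% of the genes changed 2-fold and 75.5% of those changed 4-fold were recovered. Alternatives included DESeq2 1.42.0, limma 3.58.1 with a quality weight per library, other filters and scaling, unstranded counts, a sex term and leaving out each library.

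The genes and lists were chosen with earlier results of these data known. Fold changes are printed in full for genes with an unadjusted p under 0.05 (at most 6, at least the 3 with the smallest p) and for Cx3cr1, Tmem119, C1qa, Trem2, Apoe and Cst7. Other genes named with a fold change were chosen after their values were seen. Of each other list at most 3 genes are named, by smallest p with a mean of at least 1 CPM. Leaving out libraries 410 and 411 together and the description by transcript GC were chosen after the data were examined.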

Additional observations from a re-analysis of the deposited data

Results flagged for a closer look

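Within a group of 4 libraries, 14 of 123 checks found the highest or lowest library farther from the rest than Dixon's criterion at the 95% level allows, where chance gives about 6.15. Library 410 of Het Hit 2 accounted for 8 of them, all high: the median deviation of the homeostatic genes (0.90 log2 units), and the CPM of P2ry12 (6.72), Gpr34 (2.14), Sall1 (20.3), Trem2 (2.84), Tyrobp (4.63), Spp1 (24.1) and Cd74 (5.44). Library 411 of Het DMSO stood apart as the highest for Cx3cr1 (21.3 CPM), Itgam (1.77 CPM), Itgb2 (4.14 CPM) and Tyrobp (4.04 CPM). The other 2 were Mertk in library 431 of WT DMSO, highest at 48.6 CPM, and Cd68 in library 421 of Het Hit 2, lowest at 2.03 CPM. Genes measured in 1 library are not independent checks of it.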

How the results depend on the processing

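The count of microglia genes past the threshold was 0 in all 3 comparisons under each of 23 alternatives. The median log2 fold change ranged from 0.09 to 0.63 for Het DMSO against WT DMSO, from -0.57 to 0.09 for Het Hit 2 against Het DMSO, and from -0.09 to 0.29 in Het Hit 2 against WT DMSO, where limma with library weights gave -0.02. Of 528 recomputed fold changes of named genes, 505 kept their direction. The 23 that turned were not past the threshold in any setting, and the cause was not tested. Without libraries 409 and 411, Tmem119 gave -0.10 between Het DMSO and WT DMSO. For Hit 2 in Het mice, the same setting gave 0.026 for Axl, 0.20 for Cx3cr1, 0.23 for Tmem119, 0.12 for C1qa and 0.0054 for Trem2. There, single libraries left out gave Cx3cr1 from -0.67 to 0.086 (without 411) and Apoe from -0.17 to 0.0081 (without 422). In Het Hit 2 against WT DMSO, limma with library weights gave -0.029 for Cx3cr1, -0.22 for Tmem119 and -0.016 for Apoe. Without libraries 410 and 411, Tyrobp gave -0.086, Cx3cr1 -0.18, Tmem119 -0.25, C1qa -0.0056 and Apoe -0.020. Single libraries left out gave Tyrobp from -0.085 to 0.43, Cx3cr1 from -0.18 to 0.40, Tmem119 from -0.25 to 0.34, C1qa from -0.0029 to 0.47 and Apoe from -0.069 to 0.11, with the sign turned without 410 in all 5, and for Apoe also without 430 or 431. No paired analysis was possible because animal numbers do not recur between groups. Depth limits Cst7, Clec7a and Itgax, at 0 to 9 reads per library. With 4 mice per group, only 36.7% of simulated 2-fold changes were recovered among genes drawn from the whole table. Over such genes, differences of that size or less would mostly pass unseen. The rate for the microglia genes alone was not tested.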
